A study of Mus musculus with 6 samples.

Results

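The genes described are the 6 integrin subunit genes Itgav, Itgb3, Itgb4, Itgb5, Itgb6 and Itgb8, that is the αv subunit and the β subunits that a lens could use beside β1. They were chosen by name, and each was found as 1 row among the 41128 features listed for every library. Poly(A) RNA was sequenced from mouse lenses at embryonic stage E15.5. In the conditional knockout (cKO) group, both alleles of Itgb1, the β1 subunit gene, were floxed, and Cre came from MLR10, a transgenic line that recombines in the epithelium and fibres of the lens. Their strain background is labelled mix. The wild-type (WT) group was labelled C57Bl/6, with the suffix har in the design text. Each group held 3 libraries, made from pools of 30 lenses in cKO and 75 in WT. Neither a Cre-only nor a floxed-only group was analysed here, and the WT records repeat samples of an earlier series, so genotype, Cre, strain, pool size and the time of library making cannot be told apart. Depth was 20036554 to 28095318 reads per cKO library and 10023049 to 11531139 reads per WT library.

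Integrins are receptors made of 1 α and 1 β chain that bind the extracellular matrix outside the cell and, through the β tail, the actin cytoskeleton inside it. The αv chain pairs with β1, β3, β5, β6 or β8, and these receptors recognise the Arg-Gly-Asp motif in fibronectin, vitronectin and the latent forms of TGF-β. The β4 chain pairs with α6 instead and anchors epithelia through hemidesmosomes. In the lens, integrins face the laminin-rich capsule that surrounds the epithelium and the fibre cells.

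The coding ends of the β genes are shown because Itgb8 differs there from the other β genes that pair with αv. Talin binds β tails at a membrane-proximal NPXY motif and kindlins at a membrane-distal NXXY motif, and the β8 tail is known to lack both. The last 150 coding bases, stop codon included, of the principal transcript of each gene in GENCODE M21 (GRCm38, C57BL/6J reference) are given 5′ to 3′, with in-frame NPXY codons in capitals (AAT or AAC, then CCN, then NNN, then TAT or TAC, searched on the coding strand).
Itgb8: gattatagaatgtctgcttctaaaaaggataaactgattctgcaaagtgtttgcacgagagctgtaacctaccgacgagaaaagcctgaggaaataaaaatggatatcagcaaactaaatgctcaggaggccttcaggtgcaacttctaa
Itgb5: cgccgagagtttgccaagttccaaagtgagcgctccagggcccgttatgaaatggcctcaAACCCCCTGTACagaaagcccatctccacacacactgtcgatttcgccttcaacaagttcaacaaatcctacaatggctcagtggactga
Itgb3: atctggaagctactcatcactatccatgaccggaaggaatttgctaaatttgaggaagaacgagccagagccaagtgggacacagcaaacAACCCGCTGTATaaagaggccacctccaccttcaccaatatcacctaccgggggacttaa
Itgb6: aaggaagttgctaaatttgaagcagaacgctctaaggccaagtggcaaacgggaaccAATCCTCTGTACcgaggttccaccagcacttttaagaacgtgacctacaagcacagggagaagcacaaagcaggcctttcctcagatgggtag
Itgb1: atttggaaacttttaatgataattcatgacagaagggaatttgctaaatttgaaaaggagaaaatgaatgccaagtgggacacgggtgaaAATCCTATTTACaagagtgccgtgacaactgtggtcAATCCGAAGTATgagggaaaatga

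In these windows Itgb8 held 0 such runs of codons, Itgb5, Itgb3 and Itgb6 held 1 each, and Itgb1 held 2. Of the wider NXXY run (AAT or AAC, then NNN, then NNN, then TAT or TAC), which includes NPXY, Itgb5, Itgb3, Itgb6 and Itgb1 held 2 each and Itgb8 held 0. Among the coding ends of 21686 mouse genes, 0.383% held at least 1 NPXY run and 4.78% at least 1 NXXY run. Itgb4, whose tail is far longer and of another kind, held 0 of either.

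Itgb1 was the gene targeted in cKO lenses. It stood at 236, 275 and 262 CPM (reads scaled to a library total of 1000000) in cKO replicates 1, 2 and 3, against 402, 424 and 448 CPM in WT replicates 1, 2 and 3. The difference on the log2 scale was -0.72 (adjusted p = 1.63e-05 by limma). The reads cover the whole gene, so they do not measure what remains of the deleted part.

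Of the 6 genes, 4 reached 1 CPM in at least 3 libraries and were tested. Itgb8 was higher in cKO, Itgb5 was lower, and Itgav and Itgb3 did not pass the test. Over all 11941 genes tested, 20.9% were called higher and 15.9% lower, 36.9% in all, so calls were common in this comparison. The 3 cKO libraries lay entirely above or below the 3 WT libraries for 48.1% of the genes, above for 26.9% and below for 21.2%. A call means a Benjamini-Hochberg adjusted p under 0.05 by limma on log2(CPM + 1). All fold changes are cKO relative to WT on that scale, where the added 1 CPM shrinks the changes of weakly expressed genes.

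**Figure D1:**
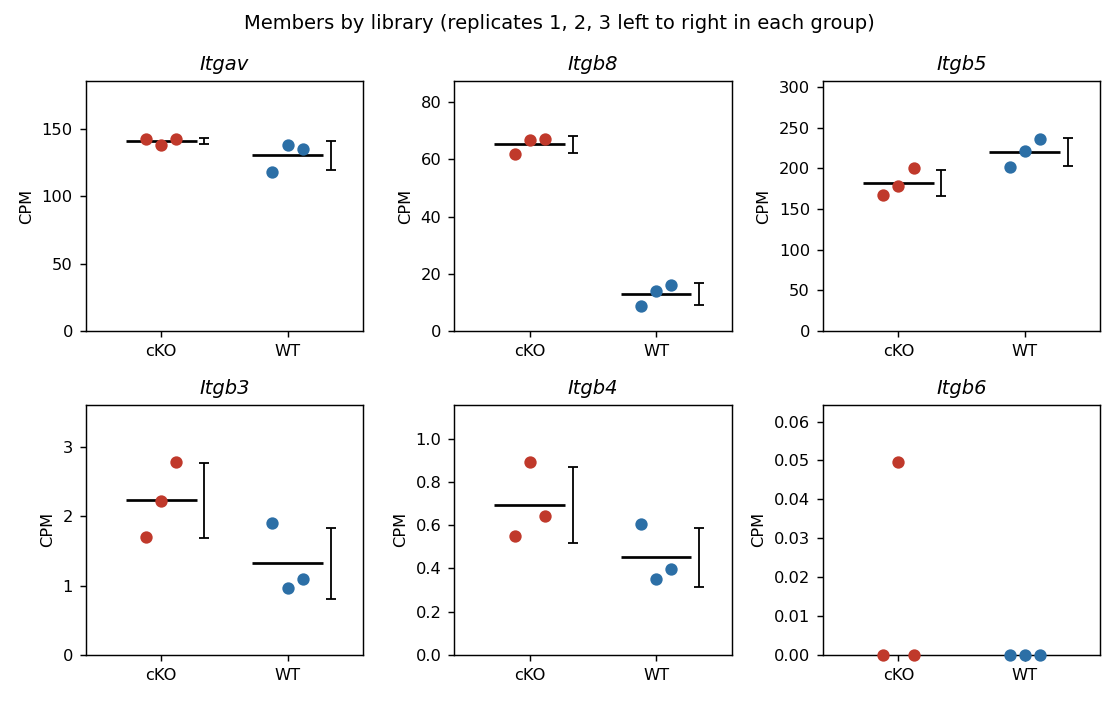
CPM of the 6 genes in each library, with its own axis for each gene. Points are libraries, horizontal lines are group means and bars are ± 1 SD (n = 3 each); no mean is drawn for Itgb6, which has 1 read in all. Itgb8 shows a wide gap between groups, with cKO libraries at 61.9 to 67.2 CPM and WT libraries at 8.85 to 16.3 CPM.

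Itgav (ENSMUSG00000027087; GRCm38 chromosome 2, 83724397 to 83806916, plus strand, protein coding) encodes the α chain shared by this receptor group. It was measured at 142, 138 and 143 CPM in cKO replicates 1, 2 and 3, against 118, 138 and 135 CPM in WT replicates 1, 2 and 3. The lowest cKO library, at 138.47 CPM, lay just above the highest WT library, at 138.33 CPM, and WT replicate 1 was the low one of its group. The means were 141 ± 2.42 CPM in cKO and 130.4 ± 10.99 CPM in WT (SD, n = 3 each). On the log2 scale the difference was 0.12, with SE 0.077 and a 95% interval of -0.05 to 0.28, and it did not pass the test (adjusted p = 0.253 by limma). Without WT replicate 1 it was 0.05. The span of the gene, introns included, overlaps 2 genes of the opposite strand, Gm13684 and Dnmt3l-ps1, and the libraries were made without strand information. Its transcript Itgav-201 shares no run of 50 bases, the read length, with transcripts of other genes. Exons outside that transcript were not searched, so any overlap there cannot be divided between the genes.

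Itgb8 (ENSMUSG00000025321; chromosome 12, 119158022 to 119238802, minus strand, protein coding) encodes the β8 chain. Its receptor αvβ8 is known for binding latent TGF-β and making it active. The gene had 1240, 1349 and 1889 reads in cKO replicates 1, 2 and 3, which are 61.9, 66.7 and 67.2 CPM. In WT replicates 1, 2 and 3 it had 102, 160 and 163 reads, which are 8.85, 14.0 and 16.3 CPM. Every cKO library was far above every WT library, the cKO values lay close together, and WT replicate 1 was the lowest of all. The mean was 65.3 ± 2.95 CPM in cKO and 13.0 ± 3.80 CPM in WT (SD, n = 3 each), a ratio of 5.005. The log2 fold change was 2.28 (SE 0.17, 95% interval 1.90 to 2.66, adjusted p = 7.12e-06 by limma), the 21st highest among the 11941 genes tested. Called rises of at least 2 log2 units were found for 27 genes, or 0.226% of those tested, and of at least 1 log2 unit for 195 genes, or 1.63%. No other annotated gene overlaps Itgb8, and its principal transcript shares no run of 50 bases, the read length, with transcripts of other genes.

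The cKO libraries were the deeper ones, and with every library thinned to the reads of the smallest the log2 fold change of Itgb8 was 2.32 (adjusted p = 5.17e-07 by limma). Leaving out any 1 library gave values of 2.04 to 2.45, each past the threshold.

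**Figure D2:**
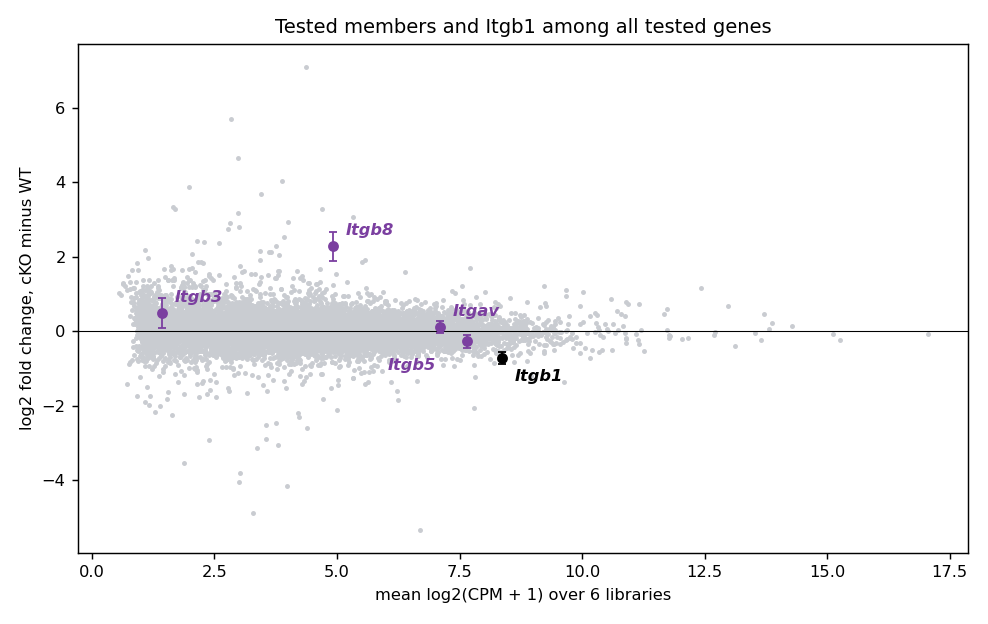
Log2 fold change (cKO minus WT) against mean log2(CPM + 1) over 6 libraries, for all 11941 tested genes (grey) and for the 4 tested members and Itgb1 with 95% intervals. Itgb8 lies above the band of genes of its level at 2.28, while Itgav (0.12) and Itgb5 (-0.27) lie within it.

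Itgb5 (ENSMUSG00000022817; chromosome 16, 33829665 to 33949338, plus strand, protein coding) encodes the β5 chain of the vitronectin receptor αvβ5. It stood at 168, 179 and 199.8 CPM in cKO replicates 1, 2 and 3, against 202, 221 and 236 CPM in WT replicates 1, 2 and 3. All cKO libraries were below all WT libraries, but cKO replicate 3 and WT replicate 1 nearly met. Means were 182 ± 16.3 CPM in cKO and 220 ± 17.3 CPM in WT (SD, n = 3 each). The log2 fold change was -0.27 (SE 0.084, 95% interval -0.45 to -0.09, adjusted p = 0.0228 by limma). The call did not hold when some single libraries were left out. The adjusted p by limma was 0.0777 without cKO replicate 1, 0.0603 without cKO replicate 2, 0.0780 without WT replicate 2 and 0.0704 without WT replicate 3, with log2 fold changes of -0.21 to -0.26. On recovered reads, edgeR gave -0.30 (adjusted p = 0.00783), in a fit that called 40.0% of genes, 20.0% in each direction.

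The change of Itgb8 was also set against those of Itgb5 and Itgav within each library, from RPKM (CPM per kilobase of gene length). The log2 ratio of Itgb8 to Itgb5 was -3.16, -3.14 and -3.29 in cKO replicates 1, 2 and 3 and -6.23, -5.69 and -5.58 in WT replicates 1, 2 and 3. The difference of 2.64 log2 units had an exact two-sided permutation p of 0.1, the smallest that 3 against 3 libraries allow. For Itgb8 to Itgav the log2 ratio averaged -1.16 ± 0.079 in cKO and -3.41 ± 0.35 in WT (SD, n = 3 each; difference 2.25, exact permutation p = 0.1). In both ratios every cKO library was above every WT library. In plain ratios, Itgav RPKM was 2.14 to 2.37 times that of Itgb8 in cKO libraries and 8.54 to 13.7 times in WT libraries.

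Itgb3 (ENSMUSG00000020689; chromosome 11, 104608000 to 104670476, plus strand, protein coding) encodes β3, which pairs with αv and, on platelets, with the αIIb chain of Itga2b. It rested on few reads. The cKO replicates 1, 2 and 3 held 34, 45 and 78, and the WT replicates held 22, 11 and 11. These are 1.70, 2.23 and 2.78 CPM in cKO and 1.91, 0.964 and 1.10 CPM in WT. WT replicate 1 lay above cKO replicate 1, so the groups overlapped. The log2 fold change was 0.49 (SE 0.18, 95% interval 0.09 to 0.88, adjusted p = 0.0522 by limma), and edgeR on reads gave 0.73 (adjusted p = 0.0596). The gene did pass the test without cKO replicate 1 (0.61, adjusted p = 0.0330 by limma) and without WT replicate 1 (0.66, adjusted p = 0.0143 by limma). The difference was still positive but smaller with thinned reads (0.33, adjusted p = 0.212 by limma) and without cKO replicate 3 (0.37, adjusted p = 0.212 by limma). DESeq2 gave an adjusted p of 0.129. Itga2b itself was called at 0.48, with 2.60 ± 0.40 CPM in cKO and 1.59 ± 0.40 CPM in WT (SD, n = 3 each; adjusted p = 0.0305 by limma). Leaving out cKO replicate 2, cKO replicate 3 or WT replicate 2 ended that call, as did thinning the reads to the smallest library, DESeq2 and the fit with no filter. The other tested platelet markers, Pf4 (0.47, adjusted p = 0.0577) and Gp1ba (0.33, adjusted p = 0.114 by limma), did not pass the test.

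Itgb4 and Itgb6 were below the level needed for the test. Itgb4 (ENSMUSG00000020758; chromosome 11, 115974709 to 116008412, plus strand, protein coding) was covered by 11, 18 and 18 reads in the cKO libraries, in replicate order, against 7, 4 and 4 reads in the WT libraries. In CPM these are 0.549, 0.890 and 0.641 in cKO and 0.607, 0.351 and 0.399 in WT, and the groups overlapped. Of its principal transcript, 5.55% is shared with B230344G16Rik, a gene on the opposite strand, so part of even these reads is uncertain. Itgb6 (ENSMUSG00000026971; chromosome 2, 60598292 to 60722643, minus strand, protein coding), which encodes the β chain of the epithelial receptor αvβ6, had 1 read in cKO replicate 2 and 0 in the other 5 libraries. A count of 0 allows up to 0.107 CPM in the deepest cKO library and up to 0.299 CPM in the shallowest WT library, counting error only. The main test did not cover either gene. In the fit with no filter, Itgb4 was at 0.22 (adjusted p = 0.274) and Itgb6 at 0.02 (adjusted p = 0.719 by limma). With so few reads a difference could be missed.

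Levels of different genes were compared per length, in RPKM. In cKO the order was Itgb5 (54.2 ± 4.85), Itgav (13.1 ± 0.23), Itgb8 (5.90 ± 0.27), Itgb3 (0.38 ± 0.091) and Itgb4 (0.099 ± 0.025 RPKM; SD, n = 3 each). In WT it was Itgb5 (65.3 ± 5.13), Itgav (12.1 ± 1.02), Itgb8 (1.18 ± 0.34), Itgb3 (0.22 ± 0.087) and Itgb4 (0.064 ± 0.019 RPKM; SD, n = 3 each). Itgb6 came last in both groups. In each group the libraries of neighbouring genes in this order did not overlap. Among the 26 integrin subunit genes examined, Itgb5 ranked 2nd in RPKM in both groups, behind Itgb1, and Itgb8 ranked 7th in cKO and 9th in WT.

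The β genes that can pair with αv were then read as shares of their summed RPKM (Itgb1, Itgb3, Itgb5, Itgb6 and Itgb8). The sum was 124 ± 8.82 RPKM in cKO and 171 ± 11.02 RPKM in WT (SD, n = 3 each). Itgb1 made up 49.4% to 53.1% of it in cKO libraries and 60.4% to 61.7% in WT libraries. Itgb5 made up 41.9% to 45.6% in cKO and 37.6% to 38.7% in WT, so its share was higher in cKO although its own level was lower. Itgb8 made up 4.92%, 4.75% and 4.67% in cKO replicates 1, 2 and 3 and 0.501%, 0.741% and 0.809% in WT replicates 1, 2 and 3. Itgb3 stayed between 0.253% and 0.361% in cKO and between 0.096% and 0.202% in WT. For each of these 4 genes the groups did not overlap and the exact two-sided permutation p was 0.1, the smallest possible. Shares of 1 sum depend on each other, and Itgb1, the targeted gene, was its largest part. Without Itgb1, the other 4 genes summed to 60.4 ± 5.16 RPKM in cKO and 66.7 ± 5.401 RPKM in WT (SD, n = 3 each; exact permutation p = 0.2). Itgb8 was at 9.79 ± 0.50% of that sum in cKO and 1.75 ± 0.39% in WT. The share of Itgb5 was then lower in cKO, at 89.6 ± 0.44% against 97.9 ± 0.24% in WT. That of Itgb3 overlapped, at 0.516% to 0.713% in cKO and 0.243% to 0.529% in WT (exact permutation p = 0.2). RNA shares say nothing of the protein pairs at the cell surface.

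**Figure D3:**
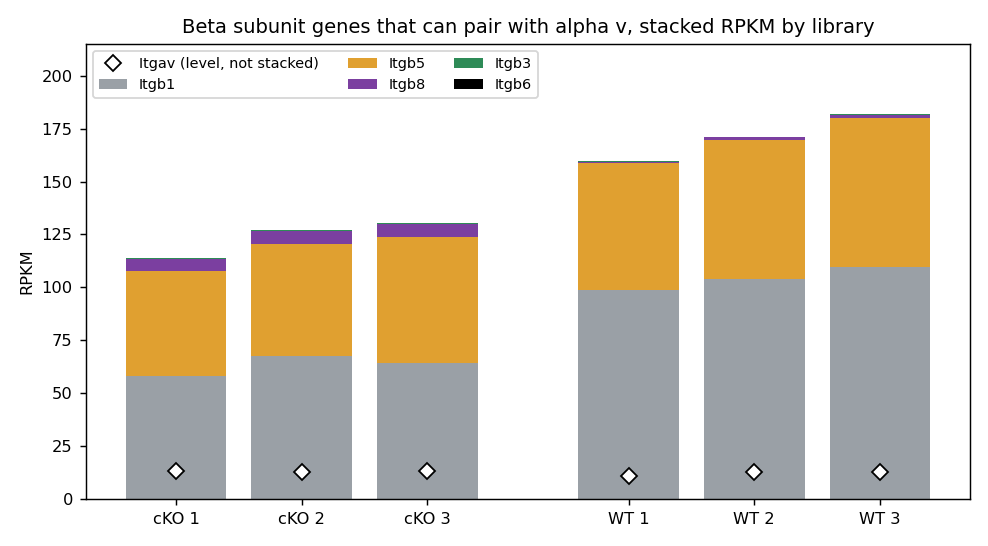
Stacked RPKM of the 5 β subunit genes that can pair with αv, by library, with the Itgav level as open diamonds. Itgb8 is a visible band in cKO (4.67% to 4.92% of the stack) and a thin line in WT (0.501% to 0.809%), Itgb3 and Itgb6 are hardly visible, and Itgav stays at 10.97 to 13.3 RPKM.

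Of the 20 other integrin subunit genes, Itgb1 included, 11 were tested, with 3 higher and 2 lower (Itga3 and Itgb1). Over all tested genes 20.9% were higher and 15.9% lower. The median log2 fold change of the 11 was -0.22, against 0.03 over all tested genes. Itga1 and Itga4 rose, at 0.76 (adjusted p = 0.00304) and 0.71 (adjusted p = 0.00160 by limma), and their products pair with β1. Itga2b was the other higher gene. Itga3, the α chain of a laminin receptor with β1, fell to 31.0, 38.1 and 39.7 CPM in cKO replicates 1, 2 and 3, against 65.7, 69.1 and 77.0 CPM in WT replicates 1, 2 and 3. Its log2 fold change was -0.95 (adjusted p = 1.44e-05 by limma). Itga5, the fibronectin receptor α chain, had 13.8 ± 0.60 CPM in cKO and 13.4 ± 1.68 CPM in WT (SD, n = 3 each; adjusted p = 0.804 by limma). The other β genes, Itgb2 of leukocytes and Itgb7, were at most 0.549 CPM and 0.297 CPM in any library and were not tested. The number of lower subunits was 4 without cKO replicate 2 and with edgeR.

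**Figure D4:**
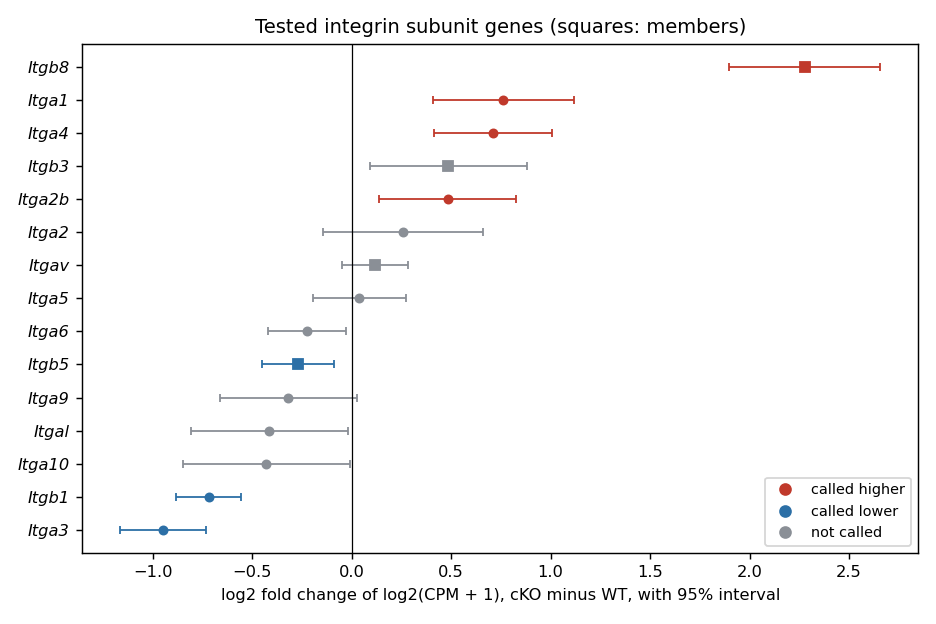
Log2 fold change (cKO minus WT) of the 15 tested integrin subunit genes with 95% intervals, coloured by call; squares are the 4 tested members. Itgb8 stands apart at 2.28, with its interval clear of that of Itga1, the next highest at 0.76, and Itga3 is lowest at -0.95.

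Ligands of αv receptors went both ways. Of 24 listed genes, 18 were tested, with 7 higher and 5 lower and a median log2 fold change of 0.07. Tgfb2, the most abundant TGF-β gene here, rose to 181, 220 and 181 CPM in cKO replicates 1, 2 and 3, against 127, 137 and 145 CPM in WT replicates 1, 2 and 3 (log2 fold change 0.50, adjusted p = 8.27e-04 by limma). Its latent form lacks the Arg-Gly-Asp motif that αvβ8 and αvβ6 bind in latent TGF-β1 and TGF-β3. Tgfb1 rose as well, with 6.77 ± 0.75 CPM in cKO and 4.06 ± 0.86 CPM in WT (SD, n = 3 each; log2 fold change 0.63, adjusted p = 0.00489 by limma). Tgfb3 averaged 3.52 ± 0.29 CPM in cKO lenses and 3.604 ± 0.34 CPM in WT lenses (SD, n = 3 each; adjusted p = 0.893 by limma).

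Cyr61, a matricellular ligand of αv receptors, rose by 1.35 (adjusted p = 5.85e-06), and L1cam, a cell adhesion molecule, by 0.90 (adjusted p = 4.41e-04 by limma). L1cam reached 1 CPM only in cKO libraries, so it entered the test through the group where it was higher. It had 2.35, 2.77 and 2.28 CPM in cKO replicates 1, 2 and 3 and 0.780, 0.789 and 0.998 CPM in WT replicates 1, 2 and 3. The other higher ligands were Fbn2 (0.96), Postn (0.45) and Tgfbi (0.47). Among the ligands that fell, Thbs1, which encodes thrombospondin 1, had 37.2, 40.9 and 47.4 CPM in cKO replicates 1, 2 and 3 and 93.9, 109 and 125 CPM in WT replicates 1, 2 and 3. Mfge8, whose product bridges αvβ3 and αvβ5 to phosphatidylserine on dying cells, had 103 ± 2.59 CPM in cKO and 195 ± 2.39 CPM in WT (SD, n = 3 each; log2 fold change -0.91, adjusted p = 5.97e-07 by limma). Npnt, which encodes nephronectin, fell by 0.52. The other lower ligands were Ctgf (-0.39, adjusted p = 0.0129) and Lama1 (-0.57, adjusted p = 0.00437 by limma). Fn1, the fibronectin gene, averaged 93.2 ± 19.9 CPM in cKO lenses and 115 ± 20.1 CPM in WT lenses (SD, n = 3 each; adjusted p = 0.150 by limma), and Vtn, the vitronectin gene, was at 0.178 CPM or less in every library. The number of higher ligands was 4 without cKO replicate 1 or 2 and with DESeq2, and 3 with the filter on a mean of 5 CPM. Fn1 was called lower with TMM, RLE and DESeq2 and without cKO replicate 2.

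Genes of latent TGF-β carriers, receptors and Smads had 5 of 21 tested higher and 2 lower, with a median log2 fold change of 0.03. Among all tested genes, 20.9% were higher and 15.9% lower. The receptor gene Tgfbr2 rose by 0.79, with 6.97 ± 1.62 CPM in cKO and 3.55 ± 0.29 CPM in WT (SD, n = 3 each; adjusted p = 0.00129 by limma). Skil (0.55), Smad7 (0.42) and Pmepa1 (0.63), which encode inhibitors of TGF-β signalling, also rose, as did Bambi, which encodes a decoy receptor. Whether TGF-β signalling differed between the groups was not tested. Lrrc32, whose product GARP holds latent TGF-β on the cell surface where αvβ8 can reach it, fell to 22.0, 18.4 and 12.8 CPM in cKO replicates 1, 2 and 3, against 35.0, 31.6 and 34.4 CPM in WT replicates 1, 2 and 3. Its log2 fold change was -0.92 (adjusted p = 8.87e-04 by limma). The other lower gene was Thbs1, which is on both lists. The alternative anchor gene Nrros averaged 2.04 ± 0.20 CPM in cKO lenses and 2.26 ± 0.32 CPM in WT lenses (SD, n = 3 each; adjusted p = 0.625 by limma), and the matrix carrier gene Ltbp1 was at -0.27 (adjusted p = 0.0763 by limma). Ltbp1 was called lower with TMM, RLE, edgeR and DESeq2 and without WT replicate 1. The number of lower genes was 4 with TMM or RLE scaling and with edgeR.

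**Figure D5:**
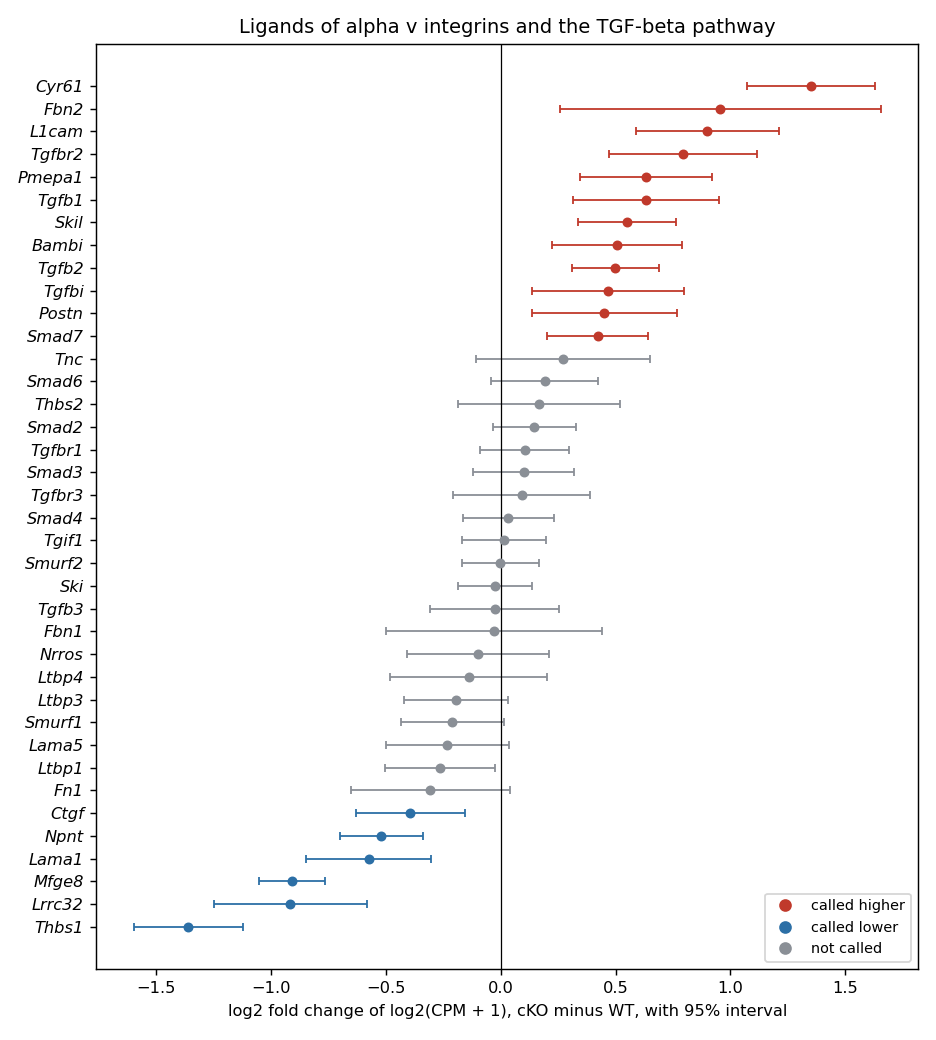
Log2 fold change (cKO minus WT) with 95% intervals of the tested ligands of αv integrins and genes of the TGF-β pathway, coloured by call. Cyr61 is highest at 1.35 and Thbs1 lowest at -1.36, and the genes of most Smads and of Tgfb3 lie around 0.

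Hemidesmosome genes, the setting of β4, had 1 of 7 tested higher and 1 lower, against 20.9% and 15.9% of all tested genes. Lamb3, a laminin chain of epithelial basement membranes, was higher at 0.58 (adjusted p = 0.00899 by limma). It reached 1 CPM only in cKO libraries, so it entered the test through the group where it was higher. Its cKO replicates 1, 2 and 3 held 26, 33 and 33 reads, at 1.17 to 1.63 CPM. Its WT replicates 1, 2 and 3 held 7, 6 and 6 reads, at 0.526 to 0.607 CPM. With reads thinned to the smallest library Lamb3 was not tested, and 0 hemidesmosome genes were then higher. Plec, the plectin gene, was lower at -0.27 (adjusted p = 0.0327 by limma). Itga6, the α partner of β4 and of β1, stood at 254, 315 and 280 CPM in cKO replicates 1, 2 and 3, against 298, 336 and 357 CPM in WT replicates 1, 2 and 3, and did not pass the test (-0.22, adjusted p = 0.0675 by limma). It was called lower with TMM, RLE, edgeR and DESeq2, without cKO replicate 2 and without WT replicate 1. Col17a1, Krt5 and Krt14, which mark hemidesmosomes of stratified epithelia, were below 0.7 CPM in every library. The number of lower genes ranged from 0 without cKO replicate 1 or 3 or WT replicate 2 or 3 to 2 without cKO replicate 2 and 3 without WT replicate 1.

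Proteins that act on β tails were represented by 22 tested genes, of which 5 were higher and 3 lower, with a median log2 fold change of 0.05. For all tested genes the shares were 20.9% higher and 15.9% lower. Dab2, an adaptor that binds NPXY motifs, rose by 1.20, with 6.16 ± 1.24 CPM in cKO and 2.13 ± 0.67 CPM in WT (SD, n = 3 each; adjusted p = 1.97e-04 by limma). Rap1a, a small GTPase that promotes talin recruitment, rose by 0.59, and the tensin gene Tns1 by 0.58. Tns3, another tensin gene, fell by 0.38 and Arhgdia by 0.34. Tln1, the talin 1 gene, was the other lower gene (-0.31, adjusted p = 0.0149 by limma). Fhl2 (0.61) and Rap1b (0.25) were also higher.

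The genes with library profiles closest to the called members were found by the root mean square difference of centred log2(CPM + 1) over the 6 libraries, among the 9529 other genes whose mean reached 5 CPM. For Itgb8 these were Atp10d (0.168), a phospholipid transporter gene, Col26a1 (0.215), a collagen gene, and Hebp1 (0.245), a haem-binding protein gene. Atp10d had 33.2, 32.6 and 40.1 CPM in cKO replicates 1, 2 and 3 and 3.99, 5.26 and 6.98 CPM in WT replicates 1, 2 and 3. For Itgb5 they were Pkp4 (0.041), a plakophilin gene, Csdc2 (0.042) and Ttyh3 (0.043), with log2 fold changes of -0.30, -0.21 and -0.24, of which that of Csdc2 did not pass the test. With 6 libraries in 2 groups such likeness mostly reflects the group difference.

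Markers of other cell types moved between the groups too. As background for the counts below, 20.9% of all tested genes were called higher and 15.9% lower. In bulk RNA, fewer cells of a type and less RNA per cell cannot be told apart. Of 9 lens markers 0 were higher and 2 lower, Mip (-0.21, adjusted p = 0.0320) and Foxe3 (-0.37, adjusted p = 0.0424 by limma), and their summed level was 184869 to 210767 CPM in cKO and 194161 to 210541 CPM in WT. The crystallin gene Cryaa was at 126624 to 136863 CPM in cKO and 133463 to 143823 CPM in WT and Pax6 at 267 ± 29.9 CPM in cKO and 269 ± 14.4 CPM in WT (SD, n = 3 each). Of 10 endothelial markers 8 were higher and 0 lower, and their summed level was 216 to 251 CPM in cKO and 136 to 164 CPM in WT. All 9 tested macrophage markers were higher (27.7 to 38.7 CPM summed in cKO, 10.2 to 14.8 CPM in WT). Pericyte markers had 4 of 7 higher and 1 lower (145 to 169 CPM in cKO, 103 to 131 CPM in WT), but without Rgs5 the sums overlapped, at 64.7 to 80.3 CPM in cKO and 64.0 to 90.5 CPM in WT. Of 8 platelet markers 3 were tested and 1, Itga2b, was higher (9.13 to 11.9 CPM in cKO, 5.08 to 7.72 CPM in WT), while Gp9 was at 0.285 CPM or less. Periocular mesenchyme markers had 3 of 5 tested higher and 1 lower (199 to 237 CPM in cKO, 210 to 253 CPM in WT), and Foxc2 was listed at 0. Most of that sum was Pdgfra, the lower marker, and without it the sums were 31.6 to 48.8 CPM in cKO and 16.4 to 20.2 CPM in WT, with no overlap. The erythroid list had 2 of 4 tested higher and 1 lower (95.4 to 170 CPM in cKO, 93.4 to 111 CPM in WT). Without Hba-a1 its sums were 35.5 to 56.5 CPM in cKO and 48.2 to 63.5 CPM in WT.

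Itgb8 is also known from neural progenitors and glia. Of 12 neural retina markers 2 were tested and 1, Nes, was higher. The list summed to 318 to 437 CPM in cKO and 113 to 131 CPM in WT, most of it Nes. Without Nes the sums overlapped, at 4.39 to 10.6 CPM in cKO and 1.82 to 10.9 CPM in WT. Sox2 and Neurod1 were listed at 0 in every library. Astrocyte and optic nerve markers had 0 of 4 tested higher and 3 lower (7.99 to 12.5 CPM summed in cKO, 15.9 to 18.1 CPM in WT). Markers of retinal pigment epithelium had 0 of 2 tested called (26.7 to 31.9 CPM in cKO, 27.1 to 35.1 CPM in WT), and Rpe65 was listed at 0. Those of surface ectoderm and cornea summed to 0.392 to 0.948 CPM in cKO and 0.694 to 1.10 CPM in WT. The part of endothelial, macrophage, pericyte and mesenchymal cells in the values of Itgb8, Itgb3, Tgfb1, Tgfbr2 and Dab2 was not tested.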

How the data were processed

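For each library the deposited table gives CPM and RPKM, units that the file headers name and that the authors computed. CPM sums to 1000000 in every library. The submitters' processing notes name edgeR and GRCm38. Aligner, counter and annotation release: not given in the sources used here. The deposited gene length equalled the union of exons in GENCODE M21 (GRCm38) for 5 of the 6 members and differed for Itgb5.

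Dividing CPM by its smallest step gave whole reads, within 0.05 reads, for 100% of values. The main test was limma-trend (limma 3.58.1, R 4.3.3, robust) on log2(CPM + 1), for the 11941 genes that reached 1 CPM in 3 or more libraries, with Benjamini-Hochberg adjustment over all of them. The log2 fold change is cKO minus WT. Alternatives were TMM or RLE scaling, a filter on the mean (5 CPM) or none, a smaller pseudocount (0.1), a block for the replicate number, edgeR 4.0.16 and DESeq2 1.42.0 on recovered reads, thinned reads, and each library left out in turn. Ratios of RPKM were tested by exact permutation (scipy 1.17.1). The limma and edgeR code was run on simulated counts in which every gene had the same spread beyond counting error. That setting differs from these data, so the run checks the code and not the error rates here. Replicates are called biological in the design text. Chi-square per degree of freedom between replicates was 4.03 to 17.5, so none was treated as a repeat. Shared sequence was searched with blastn 2.17.0.

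The members and lists were chosen with earlier results of these data known. The genes named are the members, Itgb1, called integrin genes, up to 6 genes of smallest adjusted p in each list, and the 3 closest profiles of each called member. Others, such as Itga5, Tgfb1, Tgfb3, Fn1, Vtn, Ctgf, Lama1, Nrros, Ltbp1, Bambi, Tln1 and Rap1b, were picked with their values in view. The symbols Tns2, Icap1 and Adgre1 were not matched and are not used here. Some neural retina markers are not reported here one by one.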

Additional observations from a re-analysis of the deposited data

How the results depend on the processing

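Itgb8 and Itgav kept their direction and their side of the threshold in all 15 alternatives. For Itgb8 the log2 fold change ranged from 2.04 to 2.45 when single libraries were left out and was 2.36 with a pseudocount of 0.1. For Itgav the range was 0.05 to 0.16. Itgb5 kept its direction, at -0.34 to -0.21 with single libraries left out, and lost its call in 4 of those 6 fits. Itgb3, at 0.37 to 0.66 with single libraries left out, was called in 2 of those. With the replicate number as a block its log2 fold change was 0.49 (adjusted p = 0.0221 by limma). The block changed no other member's call, and moved the counts over all genes to 2916 higher and 2249 lower. Same-numbered libraries of the 2 groups had correlations of their deviations of 0.33, -0.03 and 0.15, so the numbers were not taken to pair them. The main counts of 2499 higher and 1904 lower became 2411 and 2364 with TMM scaling, 2406 and 2376 with RLE, 2388 and 2388 with edgeR, 1967 and 2066 with DESeq2, and 1819 to 2403 and 1334 to 1934 with single libraries left out. Hemidesmosome genes had 4 lower with TMM, RLE or edgeR and 5 with the block, and the other integrin subunits had 5 lower with the block. Itga6 and Ltbp1 were called lower with the block. The filter on a mean of 5 CPM, which tests fewer genes, left 3 higher regulators of β tails and 0 higher hemidesmosome genes. At the depth of the WT libraries 1 read was worth 0.0867 to 0.0998 CPM, which limits Itgb3, Itgb4 and Itgb6.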
